A study of Homo sapiens with 15 samples.

Results

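The 36 genes considered here are a listed set of hypoxia response and glycolysis genes, and they were followed across 5 RNA extracts of the ovarian cancer cell line SKOV3ip1, which is epithelial and human. A gene was read through its probe sets that carry its symbol alone, and the brightest of them over the 15 arrays stood for it. Of the 36, 35 had such a probe set, and CA9 is not analysed here. The 35 genes were read by 82 probe sets, against 19775 genes with such a probe set on the whole array, of which 14368 were bright enough to be tested. All 35 were among the tested genes, EGLN3 through the 004 extract alone. The list falls into 4 subunits and oxygen sensors of the hypoxia-inducible factor (HIF), 19 genes of glucose uptake and glycolysis, and 13 other hypoxia targets, CA9 included.

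The study asked what MORAb-003, an antibody to folate receptor alpha (FOLR1), does to these cells beside the withdrawal of folate. One culture was kept without folate for 7 days. For 7 days 3 cultures had 2 to 10 nM folic acid (the labels write nm) with an antibody in the last 24 hours, namely the 003 antibody, the antibody written MORAb003, or the control antibody 004. The last culture had the folic acid alone for 7 days. These are called the no-folate, 003, MORAb003, 004 and folate extracts. Whether 003 and MORAb003 name 1 antibody is not said in the labels, whose sample titles write the folate source as MTF or 5-MTF. Each condition was 1 cell growth and 1 RNA extract, of which 3 aliquots went on 3 Affymetrix U133 Plus 2.0 arrays. All p-values below therefore compare RNA extracts, and say nothing of the spread between cultures. In bulk RNA, fewer cells that express a gene and less of its RNA per cell cannot be told apart.

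HIF is a transcription factor of an alpha subunit (HIF1A or EPAS1) and a stable partner. When oxygen is present, prolyl hydroxylases such as EGLN1 and EGLN3 mark the alpha subunits for destruction, so the factor is governed mainly through its protein and its activity is read from its targets. These targets move glucose into the cell, raise the enzymes of glycolysis, keep pyruvate out of mitochondria and lead to mitophagy, collagen hydroxylation and vessel growth. Several of the targets are also driven by other factors, MYC among them.

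Markers of epithelial and ovarian cancer cells were present, with 15 of 16 past the brightness filter (extract averages 10.2 to 10.4 on the log2 scale) and MSLN below it. Of the leukocyte markers, 3 of 7 with a probe set passed, namely CD3E (6.96), ITGAM (6.91) and CD3D (6.77). PTPRC and CD14 were among those below the filter, and the extract averages of this list were 6.41 to 6.52. Of the fibroblast and endothelial markers 8 of 11 passed (6.90 to 7.10), the brightest being COL1A1 (9.10) and PECAM1 (8.67). One array, replicate 1 of the 004 extract, stood apart. Its values correlated with the other 004 arrays at no more than r = 0.950, while arrays of 1 extract otherwise correlated at 0.993 or more. On it, 33 of the 35 genes read lower than the mean of the other 004 arrays, with a median difference of -0.58. Results are therefore also given without it. The extracts also differed in how much signal the 5′ end of a transcript gave relative to its 3′ end. The 3′ minus 5′ gap of the actin control probe sets was 4.09 ± 0.16 in the no-folate, 4.02 ± 0.10 in the 003, 2.42 ± 0.13 in the MORAb003, 3.46 ± 0.31 in the 004 and 3.24 ± 0.13 in the folate extract (SD, n = 3 arrays each). The gap of the GAPDH control probe sets had nearly the same order, at 2.37 ± 0.12, 2.49 ± 0.03, 1.21 ± 0.14, 2.05 ± 0.27 and 1.97 ± 0.05.

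A few hypoxia and glycolysis genes were lower in the no-folate and 003 extracts than in the folate extract, and a partly different set was higher in the MORAb003 extract. A call required 1.5-fold or more and, by limma, a Benjamini-Hochberg adjusted p under 0.05 over all tested genes. In the no-folate against the folate extract 3 of 35 genes were called, all lower (ALDOC, BNIP3 and P4HA1). That is 8.57%, against 1.8% of all tested genes called lower. The list was chosen with earlier results of these data known. Its shares beside those of all genes, here and below, are therefore description and no test. The median difference of the 35 was -0.23, against 0.01 over all tested genes, and 27 of 35 lay below 0. In the 003 against the 004 extract the same 3 genes were called lower, against 0.397% of all genes called lower (median difference -0.09, all genes 0.07). Without replicate 1 of the 004 extract these medians were -0.25 and 0.01. In the 003 against the folate extract, EPAS1 and MXI1 joined these 3, so that 5 of 35 (14.3%) were called lower, against 1.59% of all genes. The median of all 35 was -0.23, against 0.03 over all genes. No listed gene was called higher in these 3 comparisons, in which 0.905%, 3.07% and 0.432% of all genes were.

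In the MORAb003 extract some listed genes were called higher, while the list as a whole lay near all genes. The median difference of the 35 was 0.06 against the 004 extract (all genes 0.04), and -0.07 without the odd 004 array (all genes -0.05). Against the folate extract it was -0.07, with 21 of 35 below 0 (all genes -0.04). Against the 004 extract 6 genes were called higher (HIF1A, EPAS1, PDK1, P4HA1, CA12 and MXI1) and none lower, where 2.32% of all genes were lower. Their share of 17.1% was close to the 17.6% of all tested genes called higher, so the count is not particular to the list. Against the folate extract PDK1 and MXI1 were called higher, a share of 5.71% against 4.77% of all genes, and none lower, against 1.81%. The direct comparison of the 003 with the MORAb003 extract called 10 genes, all lower in 003 (28.6%, against 17.6% of all genes called lower and 7.8% higher). The median of the 35 was -0.15 there, against 0.09 over all genes. Between the no-folate and the 003 extract, and between the 004 and the folate extract, limma called none of the 35, against 0.125% and 0% of all genes. At an unadjusted p under 0.05, 6 and 3 of the 35 differed in these 2 comparisons, against 988 and 1274 of all 14368 genes.

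**Figure D1:**
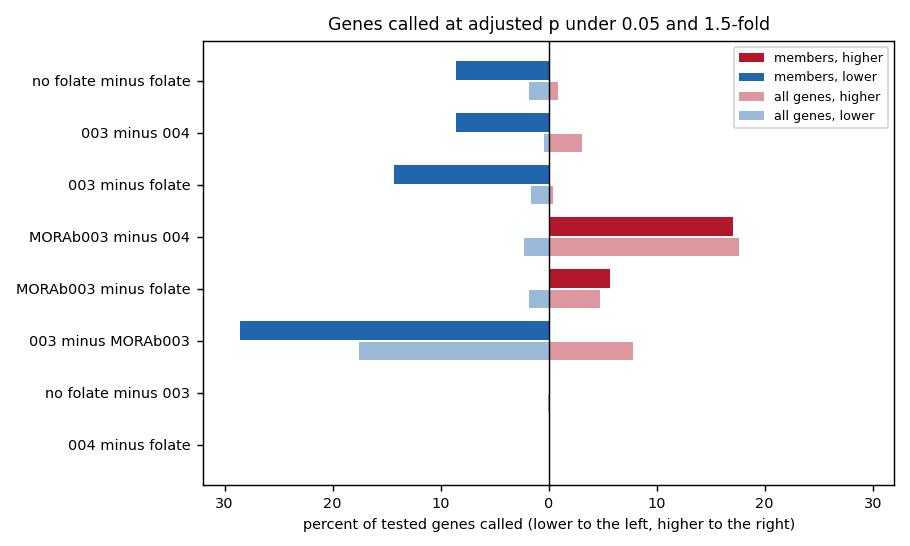
Percent of tested genes called at adjusted p under 0.05 and 1.5-fold in each of the 8 comparisons, for the 35 listed genes (dark bars) and all 14368 tested genes (pale bars), lower to the left and higher to the right. The listed genes reach 14.3% lower in 003 minus folate and 28.6% lower in 003 minus MORAb003, and their 17.1% higher in MORAb003 minus 004 matches the bar of all genes.

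Leaving out the odd 004 array changed these counts, also between other extracts, since the fit pools 1 spread over all arrays. Without it, 6 genes were called lower in the no-folate against the folate extract (background 5.16% of genes called lower), with EGLN1, BNIP3L and KDM3A added. In the 003 extract 8 were then called lower against the 004 extract (background 5.54%) and 9 against the folate extract (background 6.55%). The MORAb003 against 004 count dropped to 2 (PDK1 and MXI1, background 9.95%), and the same 10 genes were called lower in 003 than in MORAb003 (background 18.7%). Leaving out some other single arrays moved the no-folate and 003 counts against folate the other way. These fits kept the odd array in the pooled spread, and their all-gene counts are not given here. On every array ALDOC, BNIP3 and P4HA1 nevertheless read lower in no-folate and 003 than in folate. Without replicate 1 or 2 of the no-folate extract, or replicate 1 or 3 of the folate extract, no gene was called in the no-folate comparison. The 003 against folate count was likewise 0 without replicate 1 or 2 of the 003 extract or replicate 1 or 3 of the folate extract. Both array dates held arrays of all 5 extracts, and the median difference of the 35 genes in the no-folate against the folate extract was -0.24 on date 1 (2 arrays per extract) and -0.16 on date 2 (1 array per extract). In the MORAb003 against the 004 extract it was 0.18 on date 1, which holds the odd array, and -0.13 on date 2.

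**Figure D2:**
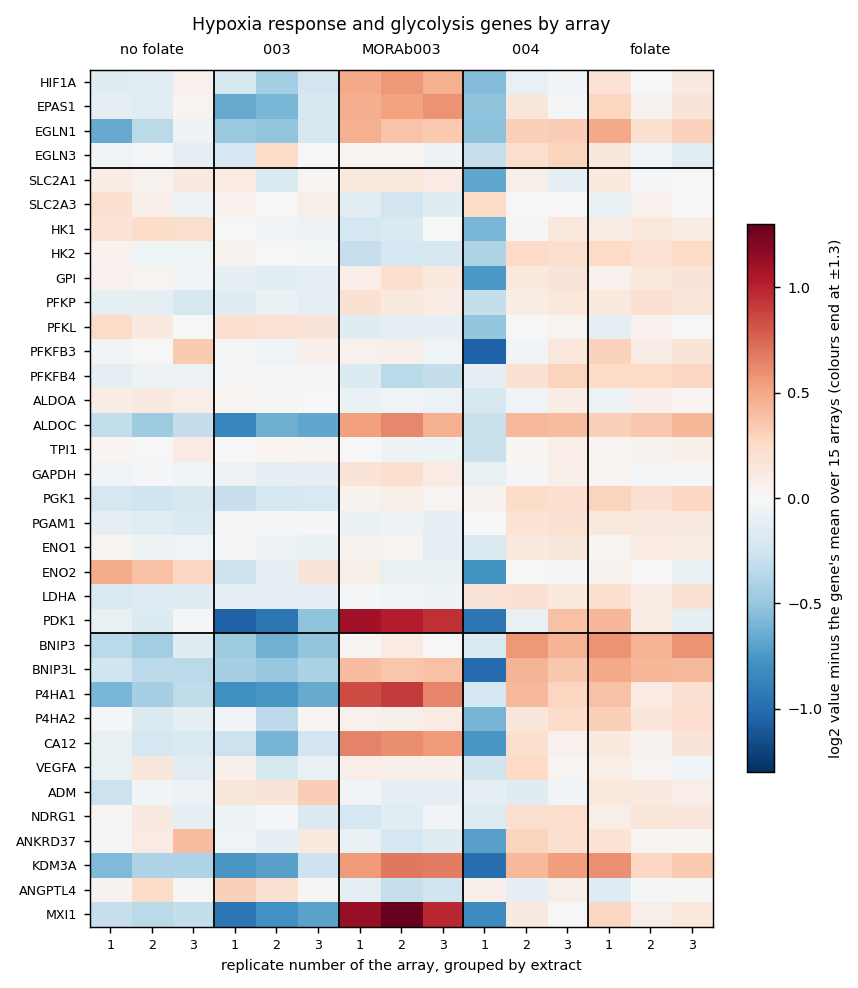
Log2 value of each of the 35 genes on each of the 15 arrays minus the gene's mean over the arrays, grouped by extract, with black lines between extracts and between the HIF subunits and sensors, the glycolysis genes and the other targets. PDK1, P4HA1, KDM3A and MXI1 are red on the 3 MORAb003 arrays and blue on the 003 arrays, in shades that differ by gene. On replicate 1 of 004, 33 of the 35 genes read lower than on average on the other 004 arrays.

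Among the HIF genes, transcripts of both alpha subunits were highest in the MORAb003 extract and low in the 003 extract. HIF1A read 12.20, 12.22 and 12.42 on the no-folate arrays, 12.15, 11.91 and 12.12 on the 003 arrays, 12.85, 12.92 and 12.82 on the MORAb003 arrays, 11.79, 12.26 and 12.32 on the 004 arrays and 12.54, 12.36 and 12.47 on the folate arrays. The 3 MORAb003 arrays lay above all 12 others, and HIF1A was 0.80 ± 0.13 (SE) lower on the log2 scale in 003 than in MORAb003 (limma adjusted p = 0.000433). The MORAb003 minus 004 difference was 0.74 ± 0.13 (adjusted p = 0.00172) and came to 0.57, under 1.5-fold, without the odd array. EPAS1, the other alpha subunit, read 8.73, 8.71 and 8.89 without folate, 8.19, 8.26 and 8.64 in 003, 9.33, 9.37 and 9.44 in MORAb003, 8.33, 9.001 and 8.82 in 004 and 9.14, 8.90 and 9.02 in folate. All 003 arrays lay below all folate arrays (difference -0.66 ± 0.16, adjusted p = 0.0417), and the 003 minus MORAb003 difference was -1.01 ± 0.16 (adjusted p = 0.00029).

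EGLN1, the main oxygen-sensing prolyl hydroxylase and itself a HIF target, read 9.19, 9.50 and 9.78 in the no-folate extract, 9.36, 9.34 and 9.64 in 003, 10.31, 10.22 and 10.19 in MORAb003, 9.32, 10.15 and 10.16 in 004 and 10.34, 10.05 and 10.15 in folate. The no-folate and 003 arrays lay below the folate arrays without overlap. Only 003 against MORAb003 was called with all arrays (-0.80 ± 0.20, adjusted p = 0.00679), and without the odd array the no-folate and 003 extracts were also called lower than folate, at -0.69 and -0.73. EGLN3, a prolyl hydroxylase that hypoxia strongly induces in many cell types, stayed dim. Its extract means were 6.47 ± 0.05 in the no-folate, 6.54 ± 0.23 in the 003, 6.53 ± 0.05 in the MORAb003, 6.61 ± 0.33 in the 004 and 6.52 ± 0.15 in the folate extract (SD, n = 3), and it was called in no comparison.

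**Figure D3:**
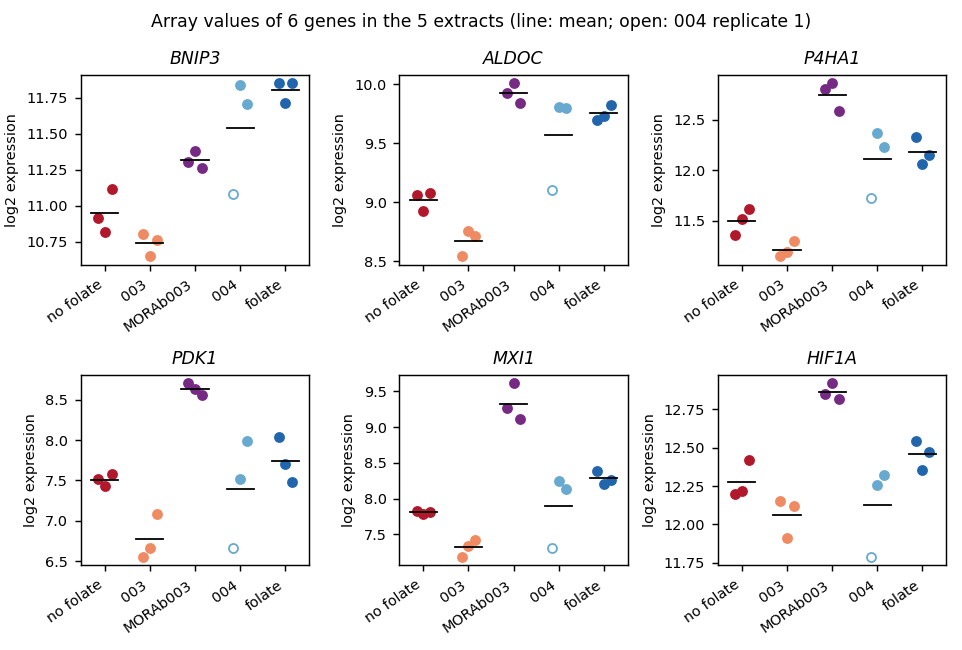
Log2 expression of BNIP3, ALDOC, P4HA1, PDK1, MXI1 and HIF1A on each array of the 5 extracts, with the extract mean as a line and replicate 1 of 004 as an open circle. BNIP3 is below the folate arrays in all 3 of the no-folate, 003 and MORAb003 extracts, whereas P4HA1, PDK1, MXI1 and HIF1A are highest in MORAb003.

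The core glycolytic enzymes were bright, and their brightest probe sets differed little between extracts. Their extract means lay between 13.43 and 15.06 on the log2 scale, where the highest value on any array was 15.52, and dimmer sets of some of these genes spread more (ALDOA 238996_x_at, for example, averaged 11.00 without folate and 10.39 in MORAb003). Whether the top of the scale holds down the differences of the brightest sets was not tested. The brightest probe sets of ALDOA, TPI1, GAPDH, PGK1, PGAM1, ENO1 and LDHA had extract means that ranged over no more than 0.49 on the log2 scale, and none of the 7 was called. PGK1, which makes the first ATP of glycolysis, nevertheless read 13.61, 13.58 and 13.63 in the no-folate extract and 13.54, 13.61 and 13.64 in the 003 extract. The MORAb003 arrays gave 13.88, 13.92 and 13.87, the 004 arrays 13.88, 14.08 and 14.05 and the folate arrays 14.12, 14.03 and 14.10. The arrays of the first 2 extracts lay below those of the 004 and folate extracts without overlap, and PGK1 differed by -0.48 ± 0.09 in no-folate minus folate (adjusted p = 0.00908) and by -0.49 ± 0.09 in 003 minus folate (adjusted p = 0.0158), both under 1.5-fold.

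LDHA, which turns pyruvate into lactate, read 14.28, 14.31 and 14.32 without folate, 14.36, 14.35 and 14.37 in 003 and 14.45, 14.44 and 14.41 in MORAb003, against 14.64, 14.68 and 14.61 in 004 and 14.68, 14.57 and 14.67 in folate. The first 9 arrays all lay below the last 6. The differences that passed an adjusted p of 0.05 were small, at -0.34 ± 0.08 in no-folate minus folate (adjusted p = 0.0307), -0.29 ± 0.08 in 003 minus 004 (adjusted p = 0.0484) and -0.21 ± 0.08 in MORAb003 minus 004 (adjusted p = 0.0482). Against folate, 003 and MORAb003 differed by -0.28 and -0.21 with adjusted p = 0.0671 and 0.101 by limma. GAPDH averaged 14.86 ± 0.02, 14.80 ± 0.03, 15.06 ± 0.05, 14.88 ± 0.09 and 14.89 ± 0.03 in the no-folate, 003, MORAb003, 004 and folate extracts. It differed only between 003 and MORAb003 by the adjusted p, at -0.26 ± 0.08 (adjusted p = 0.0193), without reaching 1.5-fold.

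Glucose uptake and the entry steps of glycolysis showed no called gene. SLC2A1, the widespread glucose transporter, averaged 9.61 ± 0.04, 9.51 ± 0.15, 9.65 ± 0.02, 9.29 ± 0.39 and 9.56 ± 0.07 in the no-folate, 003, MORAb003, 004 and folate extracts. HK2, the inducible hexokinase, was -0.48 ± 0.14 in MORAb003 minus folate (adjusted p = 0.0401). PFKFB4, which makes the activator of phosphofructokinase, was -0.41 ± 0.10 in MORAb003 minus 004 (adjusted p = 0.0108) and -0.54 ± 0.10 in MORAb003 minus folate (adjusted p = 0.00605). Both lay under 1.5-fold, and the MORAb003 arrays lay below those of the folate extract without overlap. For SLC2A3, HK1, GPI, PFKP, PFKL, PFKFB3 and ENO2 no comparison passed an adjusted p of 0.05. The largest range of extract means among these 7 was that of ENO2, the neuronal enolase, at 0.64.

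**Figure D4:**
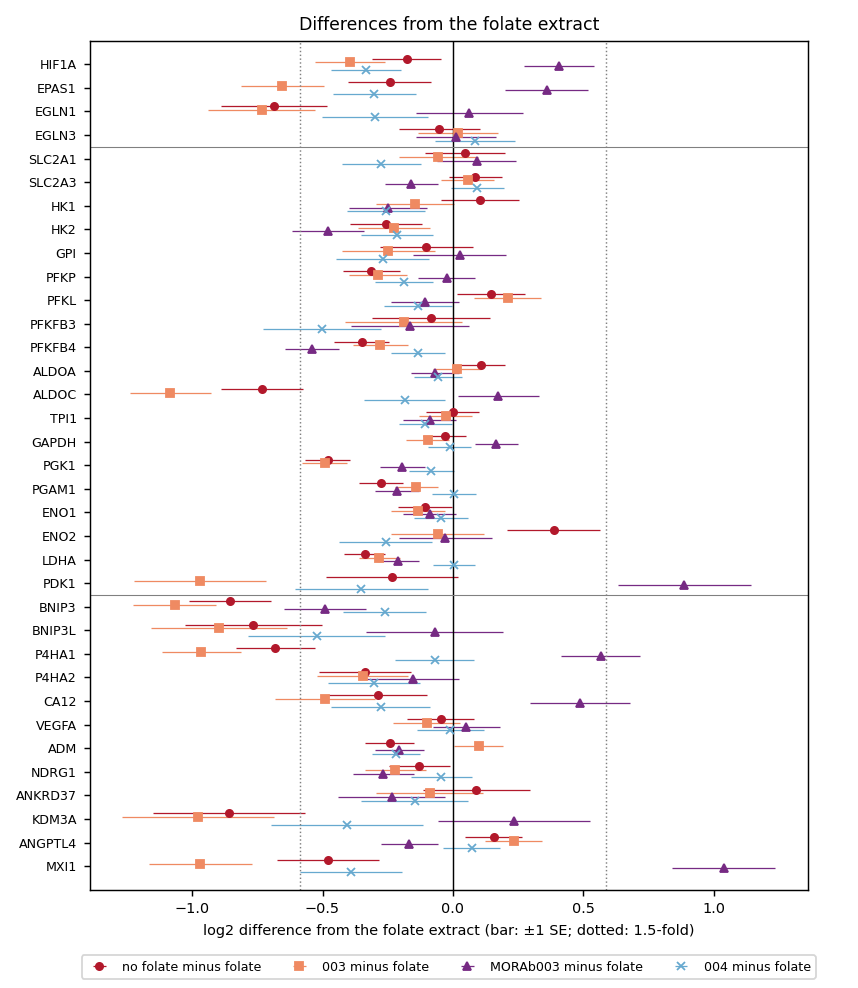
Log2 difference of the no-folate, 003, MORAb003 and 004 extracts from the folate extract for the 35 genes, with bars of 1 SE and dotted lines at 1.5-fold. ALDOC, BNIP3 and P4HA1 lie left of the line in the no-folate and 003 extracts and were called. EGLN1, BNIP3L and KDM3A also lie left of it in both, and were not called with all arrays. MXI1 and PDK1 lie right of it in MORAb003, and no 004 point is called.

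ALDOC and PDK1 were the 2 called genes of this group. ALDOC, the aldolase isoform best known from brain, read 9.06, 8.93 and 9.07 without folate, 8.54, 8.76 and 8.71 in 003, 9.93, 10.01 and 9.85 in MORAb003, 9.10, 9.81 and 9.80 in 004 and 9.70, 9.74 and 9.82 in folate. The no-folate arrays lay below all 004 and folate arrays, as did the 003 arrays, and MORAb003 arrays lay above them. ALDOC was 1.66-fold lower in no-folate than in folate (-0.73 ± 0.16, adjusted p = 0.0209), 1.86-fold lower in 003 than in 004 (-0.90 ± 0.16, adjusted p = 0.0112) and 2.12-fold lower in 003 than in folate (-1.08 ± 0.16, adjusted p = 0.00795). PDK1, the kinase that shuts pyruvate dehydrogenase, read 7.51, 7.43 and 7.58 without folate, 6.56, 6.67 and 7.09 in 003, 8.70, 8.63 and 8.56 in MORAb003, 6.67, 7.51 and 7.99 in 004 and 8.04, 7.71 and 7.48 in folate. It was highest on the 3 MORAb003 arrays, 1.85-fold over folate (0.89 ± 0.25, adjusted p = 0.0391) and 2.36-fold over 004 (1.24 ± 0.25, adjusted p = 0.00343). Without the odd array the 004 mean rose from 7.39 to 7.75, against 8.63 in MORAb003, so the fold over 004 was smaller, though still called. The call over folate was lost with the replicate number as a block, with quantile normalization, with the probe sets averaged and on array date 1 alone. Leaving out single arrays, some of them of the no-folate and 003 extracts, also lowered the MORAb003 against folate count from 2 to 1 in several fits. Which gene was lost in those fits is not given here. In 003 PDK1 was 3.62-fold lower than in MORAb003 (adjusted p = 0.000118). A second probe set of PDK1, 206686_at, did not share this, with -0.11 in MORAb003 minus 004 (adjusted p = 0.503).

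BNIP3 and P4HA1, with ALDOC, were the genes called lower in both the no-folate and the 003 extract, so the 250 bases before their RefSeq start sites are shown (GRCh38.p14, minus strand for all 3). Capitals mark ACGTG or GCGTG on either strand, the core of the hypoxia response element, where a CACGTG holds the core on both strands and counts once. BNIP3 (chr10:131981924-131982173) held 5 sites, ALDOC (chr17:28576896-28577145) 4 and P4HA1 (chr10:73096867-73097116) 1.
BNIP3: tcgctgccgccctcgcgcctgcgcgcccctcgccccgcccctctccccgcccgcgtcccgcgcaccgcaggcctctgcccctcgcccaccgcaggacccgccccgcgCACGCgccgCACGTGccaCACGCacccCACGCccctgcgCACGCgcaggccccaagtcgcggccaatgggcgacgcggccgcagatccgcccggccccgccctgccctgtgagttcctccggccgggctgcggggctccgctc
ALDOC: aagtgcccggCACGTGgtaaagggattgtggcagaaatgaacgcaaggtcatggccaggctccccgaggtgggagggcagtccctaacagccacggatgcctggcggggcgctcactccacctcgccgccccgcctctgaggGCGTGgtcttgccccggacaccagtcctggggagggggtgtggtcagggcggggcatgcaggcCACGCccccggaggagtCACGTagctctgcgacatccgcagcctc
P4HA1: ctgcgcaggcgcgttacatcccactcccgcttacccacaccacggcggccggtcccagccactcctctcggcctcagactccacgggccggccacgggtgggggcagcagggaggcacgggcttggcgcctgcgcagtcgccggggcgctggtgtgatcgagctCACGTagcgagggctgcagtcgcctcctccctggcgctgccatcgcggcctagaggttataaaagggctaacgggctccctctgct
Of all 35116 RefSeq promoter windows of this length 43.2% held at least 1 such core, and 0.8% held 5 or more. Of the 36 listed genes 32 had a window, and 36 of their 52 windows held a core (69.2%), in 28 genes. A match of letters is a description and no binding site, and the windows of MXI1 held 0, 2 and 1 cores.

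BNIP3, a mitochondrial receptor for mitophagy, was low in 3 extracts, though its brightest set was not called in MORAb003. It read 10.92, 10.82 and 11.11 without folate, 10.80, 10.65 and 10.76 in 003, 11.30, 11.38 and 11.26 in MORAb003, 11.08, 11.84 and 11.71 in 004 and 11.85, 11.71 and 11.85 in folate. Every array of the first 3 extracts lay below every folate array and below the 004 arrays other than replicate 1. The gene was 1.81-fold lower in no-folate than in folate (-0.85 ± 0.16, adjusted p = 0.0108), 1.75-fold lower in 003 than in 004 (-0.80 ± 0.16, adjusted p = 0.0169) and 2.09-fold lower in 003 than in folate (-1.07 ± 0.16, adjusted p = 0.00795). Its second probe set, 201848_s_at, was called lower than folate both in 003 (-0.92, adjusted p = 0.00887) and in MORAb003 (-0.65, adjusted p = 0.012). In no-folate that set averaged 9.14, against 9.71 in folate, which is under 1.5-fold. BNIP3L, the related mitophagy receptor, read 9.49, 9.41 and 9.40 without folate, 9.32, 9.26 and 9.34 in 003, 10.15, 10.11 and 10.13 in MORAb003, 8.74, 10.19 and 10.10 in 004 and 10.24, 10.18 and 10.17 in folate. Its arrays agreed closely within each extract apart from the odd 004 array, and 003 against MORAb003 was called (-0.83 ± 0.26, adjusted p = 0.0204). Without that array it was also called lower than folate in the no-folate extract (-0.77) and in 003 (-0.90).

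P4HA1, a catalytic subunit of collagen prolyl hydroxylase, read 11.36, 11.52 and 11.62 without folate, 11.15, 11.19 and 11.30 in 003, 12.80, 12.86 and 12.58 in MORAb003, 11.73, 12.37 and 12.23 in 004 and 12.33, 12.06 and 12.15 in folate. The 004 and folate arrays lay between the low arrays of no-folate and 003 and the high arrays of MORAb003 with no overlap on either side. The difference was -0.68 ± 0.15 in no-folate minus folate (adjusted p = 0.0248), -0.89 ± 0.15 in 003 minus 004 (adjusted p = 0.0111) and 0.64 ± 0.15 in MORAb003 minus 004 (adjusted p = 0.00722). The last came to 0.44, under 1.5-fold, without the odd array. The related subunit P4HA2 averaged 10.26 ± 0.08, 10.26 ± 0.19, 10.45 ± 0.02, 10.30 ± 0.46 and 10.60 ± 0.08 in the no-folate, 003, MORAb003, 004 and folate extracts and was not called.

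MXI1, a partner of MAX that opposes MYC, had the largest difference of the list. It read 7.83, 7.78 and 7.82 without folate, 7.19, 7.34 and 7.43 in 003, 9.26, 9.61 and 9.11 in MORAb003, 7.32, 8.25 and 8.13 in 004 and 8.39, 8.21 and 8.27 in folate. MORAb003 lay above all other arrays, 2.05-fold over folate (1.04 ± 0.20, adjusted p = 0.00553) and 2.69-fold over 004 (1.43 ± 0.20, adjusted p = 0.000371). Without the odd array the 004 mean rose from 7.90 to 8.19, against 9.33 in MORAb003, so the fold over 004 was smaller, though still called. In 003 MXI1 was 1.96-fold lower than in folate (-0.97 ± 0.20, adjusted p = 0.0222) and 4.02-fold lower than in MORAb003 (adjusted p = 1.4e-05). KDM3A, a histone demethylase, read 9.21, 9.39 and 9.39 without folate, 9.03, 9.08 and 9.52 in 003, 10.34, 10.47 and 10.45 in MORAb003, 8.81, 10.20 and 10.33 in 004 and 10.38, 10.06 and 10.13 in folate. It was called only in 003 against MORAb003 with all arrays (-1.21 ± 0.29, adjusted p = 0.00464), and without the odd array also in no-folate against folate (-0.86) and in 003 against folate (-0.98).

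CA12, a membrane carbonic anhydrase that regulates extracellular pH, read 10.35, 10.22 and 10.24 without folate, 10.17, 9.84 and 10.20 in 003, 11.09, 11.05 and 11.00 in MORAb003, 9.69, 10.66 and 10.50 in 004 and 10.57, 10.49 and 10.62 in folate. The MORAb003 arrays lay above all others, with 0.76 ± 0.19 over 004 (adjusted p = 0.0092), which was 0.47 without the odd array, and 003 was lower than MORAb003 by 0.98 (difference -0.98 ± 0.19, adjusted p = 0.00127). In this group VEGFA, ADM, NDRG1, ANKRD37, ANGPTL4 and P4HA2 were called nowhere by their brightest probe sets. VEGFA, the main growth factor for vessels, averaged 9.31 ± 0.16, 9.26 ± 0.14, 9.41 ± 0.01, 9.35 ± 0.26 and 9.36 ± 0.07 in the no-folate, 003, MORAb003, 004 and folate extracts, a range of 0.15. A dimmer set of VEGFA, 210512_s_at, spread more, at 8.36 in 003 and 9.44 in MORAb003. ADM, a vasodilator peptide, and ANGPTL4, an inhibitor of lipoprotein lipase, were higher in 003 than in MORAb003 by 0.30 ± 0.09 (adjusted p = 0.0171) and 0.40 ± 0.11 (adjusted p = 0.00954), which is under 1.5-fold and opposite to the called targets. The actin and GAPDH end gaps were smallest in MORAb003, where P4HA1, PDK1, KDM3A, MXI1, CA12, EPAS1 and HIF1A read highest, and largest in no-folate and 003, where ALDOC, BNIP3 and P4HA1 read lowest. The part of RNA end bias in these results was not tested.

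A count of arrays that did not overlap, chosen after the values were seen, set apart a second group of members. Because it was chosen this way, the shares of all genes beside it are description and no test. In BNIP3, HK2, LDHA, P4HA2, PFKFB4, PGAM1 and PGK1 all 9 arrays of the no-folate, 003 and MORAb003 extracts lay below the 5 arrays of the 004 and folate extracts that remain without replicate 1 of 004. That is 7 of 35 members (20%), against 1.39% of all tested genes, and no member had its 9 arrays above those 5, against 0.967% of all genes. With all 6 arrays of the 004 and folate extracts the counts were 2 below (LDHA and PGAM1, 5.71%, against 0.104% of all genes) and 0 above (against 0.919%). The margin of PGAM1 was narrow, with 13.945 on replicate 2 of 003 and 13.963 on replicate 1 of 004. Most of the called members do not belong to this group, since MXI1, PDK1, P4HA1, KDM3A, EPAS1, HIF1A and CA12 were highest in MORAb003.

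Calls on other probe sets of the same genes mostly had the sign of the brightest set, and those of ENO1 and PGK1 did not all do so. Of 42 calls made on other probe sets in comparisons over all 30125 tested probe sets, 38 had the sign of the gene's brightest set and 4 the opposite sign. The brightest set of ENO1, an enolase, had extract means within 0.13 of one another. Its set 217294_s_at averaged 8.55, 8.57, 10.62, 9.71 and 9.82 in the no-folate, 003, MORAb003, 004 and folate extracts, and was 0.80 ± 0.16 higher in MORAb003 than in folate (adjusted p = 0.00594). Its set 216554_s_at averaged 9.40, 9.76, 8.47, 10.04 and 9.79, and differed by -1.32 ± 0.19 in the same comparison (adjusted p = 0.000805). These 2 sets of 1 gene therefore moved in opposite directions. The brightest ENO1 set differed by -0.09 there, so the call of 216554_s_at is among the 38 of the same sign. For PGK1, 200737_at was called lower than folate in no-folate (-0.80 ± 0.11, adjusted p = 0.00142), in 003 (-0.72 ± 0.11, adjusted p = 0.00798) and in MORAb003 (-0.62 ± 0.11, adjusted p = 0.00336), a larger shift than that of the brightest set. Another set of PGK1, 227068_at, was higher in MORAb003 than in 004 (0.75 ± 0.24, adjusted p = 0.0275), which was 0.37 without the odd array. For CA12, 4 other sets were called higher in MORAb003 than in folate, by 0.74 to 0.99, and the dimmer 204509_at and 241230_at were -0.34 and -0.38 in MORAb003 minus 004. One set of VEGFA, 210512_s_at, averaged 9.01, 8.36, 9.44, 8.34 and 8.97 in the no-folate, 003, MORAb003, 004 and folate extracts. It was higher in MORAb003 than in 004 (1.11 ± 0.29, adjusted p = 0.0114), and this came to 0.63 without the odd array.

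**Figure D5:**
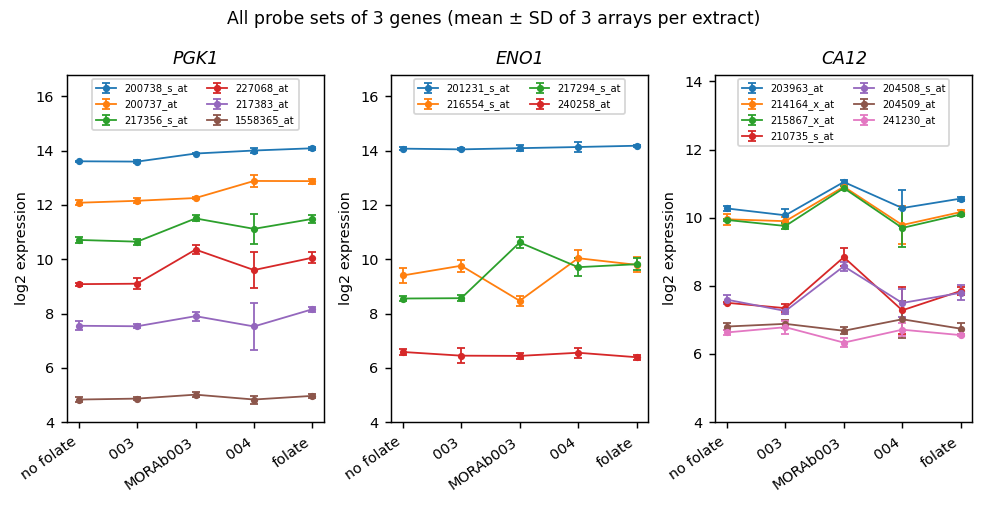
Mean ± SD (3 arrays) of every probe set of PGK1, ENO1 and CA12 in the 5 extracts on the log2 scale. The ENO1 sets 217294_s_at and 216554_s_at run in opposite directions in MORAb003 (10.62 and 8.47) while the brightest ENO1 set is flat, and 5 of the 7 CA12 sets peak in MORAb003.

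Further genes of the pathways, 66 of which were tested, were counted in the same way. They too were chosen with earlier results of these data known, so their shares are likewise description and no test. Against folate, 4 of the 66 (6.06%) were called lower in the no-folate extract, against 1.8% of all genes, and none higher, against 0.905%. They were ERO1A, an oxidase of the endoplasmic reticulum (-0.87 ± 0.16), DLAT of the pyruvate dehydrogenase complex (-0.73 ± 0.17), CUL2 of the VHL ubiquitin ligase (-0.73 ± 0.16) and INSIG1 (-0.68 ± 0.18). In the 003 extract 7 were called lower than in folate, a share of 10.6%, against 1.59% of all genes. They included CXCR4, a chemokine receptor (-1.44 ± 0.22, adjusted p = 0.00982), DDIT4, an inhibitor of mTOR signalling (-0.97 ± 0.14, adjusted p = 0.00795), and VLDLR, a lipoprotein receptor (-0.94 ± 0.21, adjusted p = 0.03). Against 004, the 003 extract had lower CXCR4 (-1.11 ± 0.22) and DDIT4 (-0.73 ± 0.14) and higher ELOB (0.74 ± 0.19, and 0.46 without the odd array). The share called lower there was 3.03%, against 0.397% of all genes, and the share called higher 1.52%, against 3.07%. Without the odd array 13 of the 66 were called lower in 003 than in 004 (19.7%, against 5.54% of all genes) and 0 higher. Then 8 were lower in no-folate than in folate (12.1%, against 5.16%), and 12 were lower in 003 than in folate (18.2%, against 6.55%).

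In the MORAb003 extract 16 of the 66 were called higher than in 004 (24.2%, against the 17.6% of all genes). Over folate 4 were called higher, and their 6.06% was close to the 4.77% of all genes. None was called lower than in 004 or folate, against 2.32% and 1.81% of all genes. CXCR4, VLDLR, LOXL2, a collagen cross-linking enzyme, and SLC2A12, a glucose transporter, were the 4 over folate, at 0.92 ± 0.22, 0.89 ± 0.21, 0.70 ± 0.09 and 0.60 ± 0.12. Over 004, VLDLR (1.34), CXCR4 (1.26), WSB1 (1.16), BHLHE40, a transcriptional repressor (1.14), and CITED2, which competes with HIF for its co-activator (1.05), led. Without the odd array 6 genes were called, these 5 among them. That share of 9.09% was no higher than the 9.95% of all genes. In 003 against MORAb003 21 of the 66 were lower (31.8%, against 17.6% of all genes) and 3 higher (4.55%, against 7.8%), with CXCR4 at -2.36 ± 0.22 (adjusted p = 1.13e-05) and VLDLR at -1.84 ± 0.21. The no-folate extract differed from 003 in 2 of them (3.03%, against 0.125% of all genes), both higher without folate. They were DDIT4 (0.87 ± 0.14, adjusted p = 0.02) and PCK2, a mitochondrial enzyme of gluconeogenesis (0.83 ± 0.09, adjusted p = 0.00274).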

How the data were processed

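The deposited log2 expression values of 54675 probe sets on 15 arrays were used without further normalization. RNA was taken with Trizol and labelled as biotinylated cRNA, per the labels' protocols. The summarisation and normalization of these values (not given in the sources used here) could not be checked, and a floor near log2 4 may understate differences of dim genes. Control probe sets (62) were left out. Of the rest, 41091 carried 1 gene symbol, 1801 several and 11721 none, by the platform annotation updated through RefSeq identifiers. Genes were tested where 1 extract mean or more lay at or above log2 6.60, the median of all values. Extracts were compared in 8 contrasts with limma 3.58.1 (lmFit, eBayes) in R 4.3.3, with 5 group means, 15 arrays and 10 residual degrees of freedom, and adjusted by Benjamini-Hochberg over all 14368 tested genes. The fit was tested on simulated data. Precision is limited by 3 arrays per extract and 1 culture per condition.

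The members and the gene lists were chosen with earlier results of these data known. All members could be named. Called members were given on every array, and others by extract mean or range. Of the further pathway genes, up to 6 called ones per comparison with the largest difference were named. Other probe sets were named where their sign differed from that of the brightest set in a comparison with a call, and further probe sets of BNIP3, CA12, PGK1 and VEGFA, and the array values of PGK1 and LDHA, were chosen after their values were seen. Alternatives were quantile normalization, 3 other filters, averaging the probe sets of each gene, other fold minimums, a replicate block or an array date block, each array date alone, only the 6 arrays compared, and leaving out each array. The promoter sequences are RefSeq's (GRCh38.p14), and SLC2A3, BNIP3L, VEGFA and NDRG1 were not matched.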

Additional observations from a re-analysis of the deposited data

Results flagged for a closer look

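P4HA1 stood out because the 2 antibody extracts were called in opposite directions against the same 004 extract. It was lower in 003 (-0.89, limma adjusted p = 0.0111) and higher in MORAb003 (0.64, adjusted p = 0.00722), and the direct 003 minus MORAb003 difference was -1.53 ± 0.15 (SE, adjusted p = 1.41e-05), with all 3 arrays of 003 below all 3 of MORAb003. Without replicate 1 of the 004 extract the MORAb003 minus 004 difference was 0.44 and no longer reached 1.5-fold, and quantile normalization also brought it under 1.5-fold.

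MXI1 stood out in the same way against the folate extract. It was lower in 003 (-0.97, adjusted p = 0.0222) and higher in MORAb003 (1.04, adjusted p = 0.00553), with a direct 003 minus MORAb003 difference of -2.01 ± 0.20 (adjusted p = 1.4e-05).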

How the results depend on the processing

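With 1 culture per condition and 3 arrays of 1 extract, no result speaks to the spread between cultures. The number of members called moved as follows, in the order no-folate against folate (3), 003 against 004 (3), 003 against folate (5), MORAb003 against 004 (6), MORAb003 against folate (2), and 003 against MORAb003 (10). In that order 389, 498, 290, 2862, 945 and 3652 of all genes were called. Leaving out 1 array gave member counts of 0 to 6, 0 to 8, 0 to 9, 2 to 8, 1 to 3 and 9 to 11, with 0 to 1 for no-folate against 003 and 0 for 004 against folate. All-gene counts of these fits are not given here, apart from the shares without replicate 1 of 004 above. The count of 8 in 003 against 004 and of 2 in MORAb003 against 004 came without replicate 1 of the 004 extract, and the 0 in 003 against 004 without replicate 1 of the 003 extract. A 2-fold minimum gave 0, 0, 2, 2, 1 and 6, and over all genes 64, 31, 58, 1121, 240 and 1430. With no fold minimum the first 2 counts and that of MORAb003 against folate were 5 each, and over all genes 583, 857 and 1600. Array date 1 alone gave 0, 0, 0, 4, 0 and 9, with fewer arrays in the fit, and over all genes 0, 0, 0, 2470, 23 and 3183. With only the 6 arrays compared they were 6, 0, 9, 0, 2 and 10, and 1 (PDK1, higher) for no-folate against 003. Over all genes that setting called 915, 0, 1019, 25, 1465 and 3781, and 116 for no-folate against 003. The 0 in 003 against 004 and 25 in MORAb003 against 004 compare with 498 and 2862 in the fit of all arrays. Averaging the probe sets of each gene gave 3 (ALDOC, PGK1 and BNIP3, without P4HA1), 2, 5 (ALDOC, PGK1, BNIP3, BNIP3L and MXI1, without EPAS1 and P4HA1), 4, 1 and 8. Over all genes it gave 192, 299, 172, 1886, 551 and 2468.

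Quantile normalization gave 5, 5 and 9 for the first 3 counts, and over all genes 643, 563 and 627, where the main fit called 389, 498 and 290. The 5 of no-folate against folate (EGLN1, ALDOC, BNIP3, BNIP3L and KDM3A) no longer held P4HA1, which fell under 1.5-fold. This normalization changed the split of MORAb003 against 004 to 2 higher (PDK1 and MXI1) and 2 lower (HK2 and PFKFB4), with 2636 of all genes called. That of MORAb003 against folate became 1 higher (MXI1) and 1 lower (PFKFB4), with 1023 of all genes called. It moved the median of all genes in MORAb003 against 004 to -0.10 and in 004 against folate to 0.003 (-0.13 as deposited), and the members' median in 003 minus MORAb003 to 0.004. The cause of these moves was not tested. Same-numbered arrays showed no steady deviation together (correlations of -0.55 to 0.52), so the samples were not treated as paired. The replicate number does follow the array date, since replicates 1 and 2 of every extract were on date 1 and replicate 3 on date 2. A fit with the replicate number as a block moved the count of MORAb003 against folate to 1, without PDK1, and left the other 7 unchanged. The 42 single-gene differences recomputed were those called with all arrays or without the odd 004 array. Other fold minimums, other filters, a block, fitting only the arrays compared, or leaving out an array of another extract leave a difference unchanged. Under those settings the sign could not change. It could change only with quantile normalization, averaged probe sets, a single array date or a compared array left out. None of the 42 differences changed sign under any of the alternatives run. Of their values under these alternatives, 128 lost the call and 36 gained it, 10 differed by more than the spread between arrays with array date 2 alone, which has no test, and the other 960 stayed on the same side of the call or, for that date, within the spread.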
